A study of Rattus norvegicus with 4 samples.

Results

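The genes described here are Ptprm, Ptprk, Cdh13, Trappc9, Exoc6b, Atrnl1, Kcnma1 and Bcas3, 8 rat genes that each span over 450 kb of the genome. Wwox and Fhit, at the best-known fragile sites, were left out, and the 8 were picked because their signal was lower after PhIP. They were read out by all 19 probe sets that the platform annotation assigns to 1 of these symbols, of 31042 probe sets in all. Of the 14161 genes with a measured probe set and an annotated span, 206 span at least 450 kb. Because the contrast of PhIP with control chose the genes, their differences are given as a description, with no test.

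The data came from the ventral prostate lobe of male F344 rats, an inbred laboratory strain, that were 6 weeks old. PhIP rats were given 300 mg/kg of PhIP, a heterocyclic amine of well-cooked meat, and control rats none. Both groups were killed after 2 days, and no allele or transgene is named for either. Each group held 4 rats, and each array carried the pooled RNA of 2 rats, which left 2 arrays a group (PhIP 1 and 2, control 1 and 2). Route and vehicle are not given in the labels. The spread between arrays therefore mixes that between pools of rats with that of the arrays themselves. So small a number of arrays limits precision.

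Very long genes take longer to transcribe than short ones, since RNA polymerase must cross long introns before a transcript is complete, and many of them lie at chromosomal fragile sites. PhIP is activated in the body to forms that bind guanine and leave bulky adducts on DNA. The 8 genes belong to no common pathway. Ptprm and Ptprk encode receptor-type tyrosine phosphatases that bind their own kind on neighbouring cells. Cdh13 encodes T-cadherin, a cadherin held in the membrane by a lipid anchor, which binds adiponectin. Trappc9 and Exoc6b encode subunits of vesicle-tethering complexes. Atrnl1 encodes a membrane protein related to attractin, and Kcnma1 the pore of the BK potassium channel, which is opened by calcium and voltage. Bcas3 encodes a protein that is found at forming autophagosomes.

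RefSeq promoter windows of build GRCr8, from 250 bases before to 50 bases after a start site, matched 5 of the 8 genes (6 windows, since Atrnl1 has another start). The following 3 are shown because they belong to the gene with the largest decrease (Ptprm), the gene with the brightest probe set (Kcnma1) and the gene whose probe sets differed in sign (Bcas3). They are written 5′ to 3′ in lower case, and capitals mark the GC box GGGCGG and the CCAAT box CCAAT on either strand.
Ptprm, chr9:114790428-114790727, minus strand: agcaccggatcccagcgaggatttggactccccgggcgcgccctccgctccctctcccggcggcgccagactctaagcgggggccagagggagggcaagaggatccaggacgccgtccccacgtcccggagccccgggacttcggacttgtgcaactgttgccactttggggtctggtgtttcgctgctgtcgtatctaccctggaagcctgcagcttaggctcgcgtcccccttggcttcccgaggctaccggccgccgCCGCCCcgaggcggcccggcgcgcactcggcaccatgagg
Kcnma1, chr15:351675-351974, plus strand: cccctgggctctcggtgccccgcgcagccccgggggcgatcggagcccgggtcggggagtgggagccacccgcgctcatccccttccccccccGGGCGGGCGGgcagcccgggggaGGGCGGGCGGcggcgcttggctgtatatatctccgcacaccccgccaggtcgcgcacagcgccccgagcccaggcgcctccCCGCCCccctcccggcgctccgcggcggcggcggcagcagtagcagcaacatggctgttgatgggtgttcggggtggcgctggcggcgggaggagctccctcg
Bcas3, chr10:70711275-70711574, plus strand: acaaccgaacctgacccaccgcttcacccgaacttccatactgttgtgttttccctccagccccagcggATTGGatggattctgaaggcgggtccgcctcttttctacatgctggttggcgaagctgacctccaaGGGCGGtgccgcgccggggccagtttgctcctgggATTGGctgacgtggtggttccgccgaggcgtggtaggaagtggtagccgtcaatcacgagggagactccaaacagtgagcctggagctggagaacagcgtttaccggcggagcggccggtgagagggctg
The 3 windows printed were rich in G and C. The GC content was 70.0% for Ptprm, 78.3% for Kcnma1 and 61.3% for Bcas3, against a median of 51.7% over all 33469 windows. The Exoc6b window had 55.7%, and the Atrnl1 windows had 79.3% and 31.7%. The GC box occurred in 5 of the 6 windows, all but the second one of Atrnl1, and in 33.1% of all windows. Overlapping matches were counted each, which gave 5 in Kcnma1, 2 in Atrnl1 and 1 in each of the other three genes. The CCAAT box occurred in Bcas3 only among the 6, with 2 matches, and in 37.5% of all windows. The TATA box TATAAA was in 0 of the 6 windows and in 14.2% of all. The decamer of the p53 binding motif, searched by its consensus, was in 0 of the 6 windows and in 7.98% of all. The motifs were chosen after the sequences were seen, and a match is a run of letters and not a shown binding site.

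Values are MAS5 signals, 1 per probe set and array on a linear scale, on which all 4 deposited arrays had the same trimmed mean. Differences are means of PhIP minus means of control on the log2(signal + 10) scale, with limma's moderated standard error (SE) where a probe set was bright enough to enter the fit. The added constant makes the difference of dim probe sets smaller than their ratio of signals. Of the 19 probe sets, 16 passed the filter on dim probe sets and 3 did not.

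Every gene had at least 1 probe set that was lower on both PhIP arrays than on both control arrays. Of the 19 probe sets, 15 were lower without overlap of the groups, 1 was higher without overlap and 3 overlapped. Over all 31042 probe sets, 25.4% were lower without overlap and 15.9% higher (26.0% and 19.8% of tested ones), a comparison from which nothing is read here, since the genes were picked on it. The label of lowered genes therefore holds for each gene and not for each probe set. The median difference of the 19 was −0.65, against −0.05 over all probe sets. No p-value is given for the 8 genes' own probe sets. Over all tested probe sets, 7.61% were lower and 5.36% higher with limma's unadjusted p under 0.05, and 0.00537% were lower and 0.0215% higher past its adjusted p of 0.05.

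**Figure D1:**
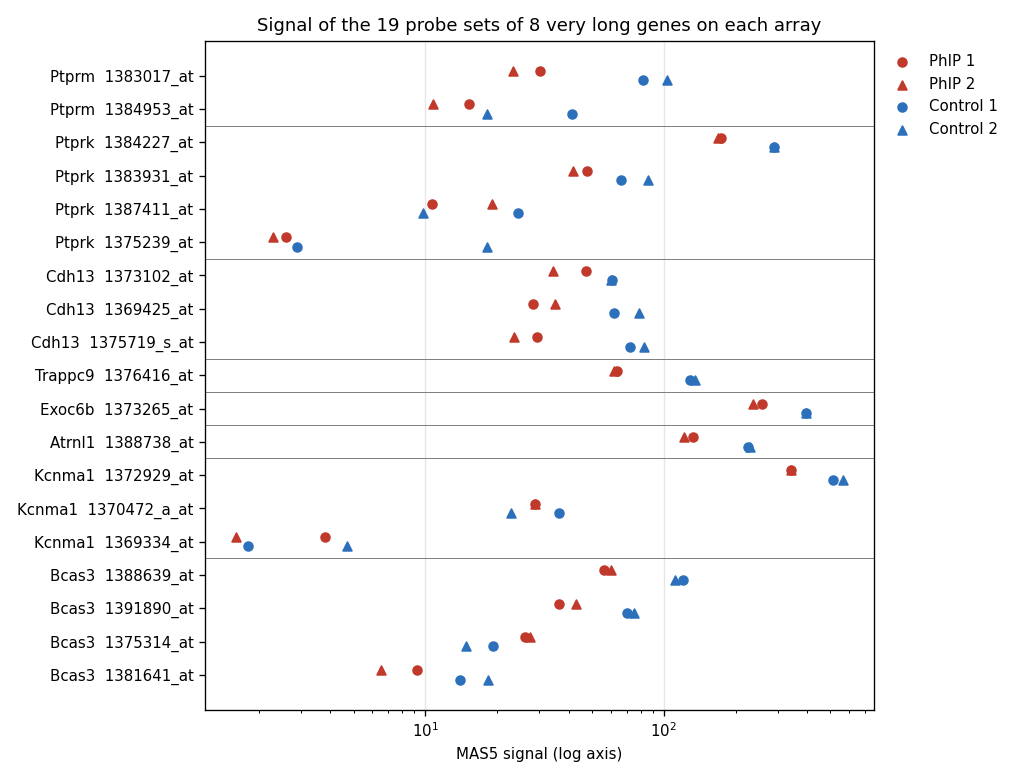
MAS5 signal (log axis) of each of the 19 probe sets on the 4 arrays, grouped by gene, with PhIP arrays in red above control arrays in blue and the array number shown by the marker. For 15 probe sets both red points lie left of both blue points, and for Bcas3 1375314_at they lie right of them.

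Of the cell-contact genes, Ptprm had the largest decrease. Its brighter probe set, 1383017_at, had signals of 30.4 and 23.3 on the PhIP arrays, against 82.2 and 103.2 on the control arrays. Both PhIP pools lay well below both control pools, with PhIP at 29.0% of control. The mean signal was 26.9 ± 5.02 in PhIP and 92.7 ± 14.8 in control (SD, n = 2 each), a log2 difference of −1.48 ± 0.20 (SE). Its other probe set, 1384953_at, had 15.3 and 10.8 in PhIP, against 41.1 and 18.1 in control. The groups did not overlap there either, but control 2 lay close to PhIP 1, and the difference was −0.72 ± 0.33.

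Ptprk, the other receptor phosphatase, was brighter than Ptprm in its main probe set. There, 1384227_at had 174.2 and 169.3 in PhIP, against 289.2 and 289.1 in control. The arrays of each group nearly coincided, with PhIP at 59.4% of control (−0.72 ± 0.12). A similar proportion was seen in 1383931_at, with 47.7 and 41.6 in PhIP, against 66.4 and 86.0 in control (58.6%, −0.65 ± 0.19). The dimmer 1387411_at had 10.7 and 19.1 in PhIP, against 24.4 and 9.8 in control, so the groups overlapped (−0.09 ± 0.34). The dimmest, 1375239_at, had 2.6 and 2.3 in PhIP, against 2.9 and 18.1 in control. Only control 2 stood apart there, control 1 lay just above PhIP 1, and the probe set was too dim for the fit.

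Cdh13, with a span of 1037.9 kb the longest of the 8, was lower in all 3 of its probe sets. 1375719_s_at had 29.4 and 23.6 in PhIP, against 72.5 and 82.9 in control (−1.27 ± 0.19). 1369425_at, designed on the RefSeq mRNA, had 28.4 and 34.9 in PhIP, against 62.1 and 79.1 in control (−0.95 ± 0.20). In both, PhIP was less than control by a wide gap, at 34.1% and 44.8% of its mean. 1373102_at had 47.2 and 34.3 in PhIP, against 60.9 and 60.1 in control (−0.49 ± 0.20). The 3 probe sets were of similar brightness in control, and their differences spread over 0.78 on the log2 scale.

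The vesicle-tethering genes were each read by 1 probe set with close replicates. Trappc9, a subunit of a complex that activates Rab proteins at the Golgi, had 63.5 and 61.6 in PhIP, against 128.4 and 134.8 in control. PhIP stood at 47.5% of control, and the difference was −0.96 ± 0.15. Exoc6b, a subunit of the exocyst, which tethers secretory vesicles at the plasma membrane, had 258.7 and 236.7 in PhIP, against 394.0 and 394.5 in control (62.8%, −0.65 ± 0.11). In both genes the gap between the groups was larger than the spread within either.

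Atrnl1 had 132.1 and 121.6 in PhIP, against 224.8 and 229.2 in control. It stood at 55.9% of control (−0.79 ± 0.13), again with a gap far wider than the spread within groups. Attractin, its relative, is known from agouti signalling in the coat of the mouse.

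Kcnma1 differed between its probe sets. The brightest probe set of all 19, 1372929_at, had 340.3 and 340.1 in PhIP, against 511.7 and 566.5 in control (63.1%, −0.65 ± 0.11). The groups were clearly apart there. 1370472_a_at, designed on an mRNA record, had 28.9 and 28.7 in PhIP, against 36.3 and 22.8 in control, and both PhIP arrays fell between the control arrays (−0.01 ± 0.24). 1369334_at, designed on the RefSeq mRNA, had 3.8 and 1.6 in PhIP, against 1.8 and 4.7 in control, so the groups overlapped near the bottom of the scale.

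Bcas3 was the gene whose probe sets went both ways. 1388639_at had 56.4 and 60.2 in PhIP, against 120.9 and 111.1 in control (50.3%, −0.88 ± 0.16). 1391890_at had 36.3 and 42.7 in PhIP, against 69.8 and 75.2 in control (54.5%, −0.74 ± 0.18). The dim 1381641_at had 9.2 and 6.5 in PhIP, against 14.0 and 18.3 in control, also without overlap, and was too dim for the fit. In these 3 probe sets PhIP stood near or just above 50% of control. The fourth, 1375314_at, had 26.3 and 27.5 in PhIP, against 19.3 and 14.8 in control, higher in both PhIP arrays (158% of control, 0.45 ± 0.23). It differed from 1388639_at by 1.34 on the log2 scale, the widest gap between probe sets of any of the 8 genes.

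The probe sets that were not lower without overlap were all dim. The 12 with a mean signal of at least 50 over the 4 arrays (50.6 to 440) covered all 8 genes, and all 12 were lower in PhIP without overlap, by −1.48 to −0.49. The 7 below that level (2.98 to 29.2) belonged to Ptprm, Ptprk, Kcnma1 and Bcas3, and of these 3 were lower without overlap, 1 was higher and 3 overlapped. This level was chosen after the values were seen. The genes were picked for a lower signal, so nothing is read from these counts or from those by record below. Over all probe sets, of any level, 25.4% were lower without overlap. The annotation used here does not place probe sets at the 3′ end or in introns of the genes. By the kind of record behind the probe set, 13 of 14 designed on expressed sequence tags were lower without overlap, with a median difference of −0.72. Of the 3 designed on mRNA records, 1 was (Cdh13), with a median of −0.06. The annotation gave no record for 2 probe sets of Ptprk, of which 1 was lower without overlap. The mRNA records are those of Cdh13 and Kcnma1 only, and the 2 of Kcnma1 are among the dim probe sets.

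**Figure D2:**
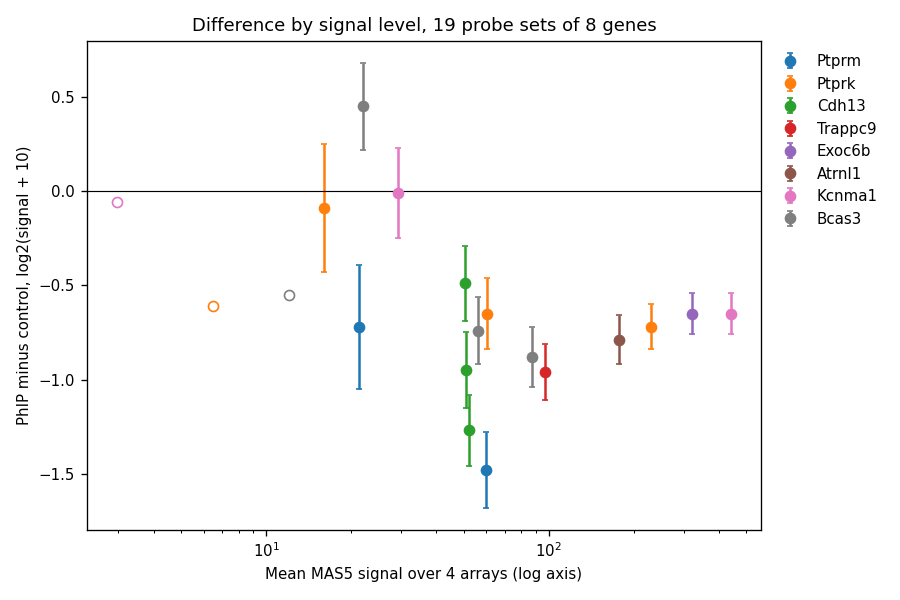
Difference of PhIP minus control on the log2(signal + 10) scale against the mean signal over the 4 arrays (log axis), 1 point per probe set and 1 colour per gene. Bars are limma's moderated SE and open points were too dim for the fit. The 12 probe sets with a mean signal of at least 50 lie between −1.48 and −0.49, and those below it spread from −0.72 to 0.45.

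Most of these genes were brighter in control than the median gene. Taking the brightest probe set of a gene, as a rank of signal among 14161 genes, the control level was lowest for Cdh13 (48.6th percentile) and highest for Kcnma1 (90.3rd percentile). The brightest is the one with the highest mean log2 value over the 4 arrays. For Cdh13 it was 1373102_at, with a control mean of 60.5, against 70.6 and 77.7 for its other probe sets. Those were lower in PhIP by more, so the choice gives Cdh13 a low control level and a small decrease. Probe sets differ in how well they bind, so the percentiles order signals and not numbers of transcripts. By span, Cdh13 (1037.9 kb) was followed by Kcnma1 (706.1), Ptprm (704.6), Atrnl1 (540.8), Ptprk (499.2), Trappc9 (477.0), Bcas3 (459.4) and Exoc6b (455.4). In the same order, the differences of the brightest probe sets were −0.49, −0.65, −1.48, −0.79, −0.72, −0.96, −0.88 and −0.65. Nothing is read from span against decrease among the 8, since they were picked for a lower signal. The 8 genes lie on chromosomes 1 (Ptprk and Atrnl1), 4 (Exoc6b), 7 (Trappc9), 9 (Ptprm), 10 (Bcas3), 15 (Kcnma1) and 19 (Cdh13) of GRCr8.

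The 8 genes were then set beside all other genes by annotated span, taking the brightest probe set of each gene. Median differences were near that of all genes up to a span of 100 kb and lower in each longer class. For spans below 10 kb, from 10 to 30 kb and from 30 to 100 kb, the medians were −0.02, −0.03 and −0.03. From 100 to 200 kb the median was −0.09 (1173 genes), from 200 to 450 kb −0.18 (562 genes) and from 450 kb −0.27 (206 genes), against −0.04 over all 14161 genes. The share lower in PhIP without overlap was 24.1% below 10 kb, 33.2% from 100 to 200 kb, 44.1% from 200 to 450 kb and 47.1% from 450 kb, where 26.5% of all genes were. The last share includes the 8 genes picked for lower signal. Without them it was 44.9%, close to that from 200 to 450 kb. The share higher without overlap was 19.5%, 12.5%, 6.41% and 7.28% in the same classes, and 18.3% over all genes.

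Between arrays of the same group the classes differed by less. PhIP 2 minus PhIP 1 had medians from −0.03 to 0.00 over the 6 classes, and control 2 minus control 1 from 0.02 to 0.08. Control 2 minus control 1 was highest in the shortest class and lowest in the longest. Genes of a class share the same 4 arrays, so their number is not a number of replicates.

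**Figure D3:**
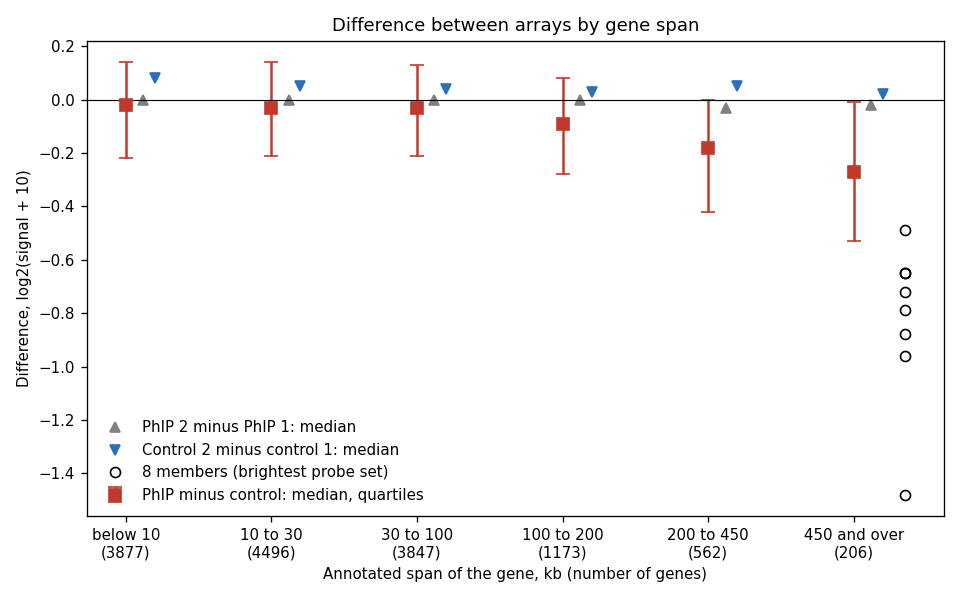
Median difference between arrays on the log2(signal + 10) scale by annotated span of the gene. Squares give PhIP minus control with bars for the quartiles over genes, triangles the difference between the arrays of 1 group, and open circles the brightest probe set of each of the 8 genes. The squares move from −0.02 below 10 kb to −0.27 from 450 kb, and the triangles stay between −0.03 and 0.08.

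Leaving out the 8 genes, the other 198 genes of at least 450 kb had a median difference of −0.26, and leaving out Wwox and Fhit too did not move it (−0.26, 196 genes). Of these 198, 88 were bright enough to be tested, and at an unadjusted limma p under 0.05, 31 were lower (35.2%) and 3 higher. Over all tested genes, 8.45% were lower and 6.12% higher by that rule, and 0 of the 88 passed the adjusted p of 0.05. Since the 8 genes were taken from the low end, the rest are short of low ones. In rank of difference among all 206, Ptprm was the third lowest, Trappc9 the seventh, Bcas3 the eleventh, Atrnl1 the eighteenth, Ptprk 25, Exoc6b 33, Kcnma1 34 and Cdh13 60. The rank of Cdh13 rests on 1373102_at (−0.49), while its other probe sets stood at −0.95 and −1.27.

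Very long genes were dimmer than others, with a median control signal of 16.5, against 65.1 over all genes. The classes were therefore also compared within ranges of the mean signal over the 4 arrays, ranges chosen after the data were seen. Above a mean signal of 100, the median was 0.03 for spans below 10 kb, −0.04 from 100 to 200 kb, −0.12 from 200 to 450 kb and −0.36 from 450 kb (26 genes, −0.27 for the 22 that are not among the 8). Between 20 and 100 it was −0.06, −0.18, −0.34 and −0.46 in these classes (57 genes in the last, −0.42 for the 53 others). Below 20 the medians were close together, from −0.09 to −0.15, but the added constant shrinks differences most at this level. The share lower without overlap there was 26.4% below 10 kb, 28.7% from 100 to 200 kb, 29.4% from 200 to 450 kb and 33.3% from 450 kb.

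Among the other very long genes, Wwox and Fhit stood lowest. Wwox had signals of 9.7 and 13.1 in PhIP, against 62.7 and 62.4 in control (−1.77 ± 0.21), and Fhit 7.5 and 1.5, against 49.1 and 27.5 (−1.73 ± 0.33). The methyltransferase gene Smyd3 had 14.3 and 11.5 in PhIP, against 26.8 and 52.8 in control (−1.07 ± 0.30). The glypican gene Gpc6, which encodes a cell-surface proteoglycan, stood at −1.0 ± 0.26. The protein kinase C gene Prkce and the cyclin-dependent kinase gene Cdk14 both stood at −0.91, with SEs of 0.20 and 0.19. The phosphodiesterase gene Pde4d stood at −0.90 ± 0.35 and Cdkal1, which encodes a tRNA-modifying enzyme, at −0.84 ± 0.17. None of these 8 passed limma's adjusted p of 0.05 (the lowest was 0.0517 for Wwox, and the others lay between 0.11 and 0.346).

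Not all very long genes were lower. Diaph3, a formin gene, had 46.3 and 57.4 in PhIP, against 29.8 and 24.1 in control (0.74 ± 0.21, limma adjusted p = 0.224). Rasgef1b, an exchange factor gene for Ras-family proteins, stood at 0.59 ± 0.19 (limma adjusted p = 0.269), and Fgf13, which encodes an intracellular member of the FGF family, at 0.44 ± 0.11 (limma adjusted p = 0.184). Zwint, a kinetochore gene, stood at 0.28 ± 0.12 (limma adjusted p = 0.386), and its annotated span of 451.1 kb, just above the threshold, is unusually long for this gene and was not checked against another source. At that threshold, the genes just inside were Zwint, Slc4a4 (−0.09), Pde10a (−0.52), Ppp2r2b (−0.56) and Cadps (−0.31). Those just outside were Tshz2 (−0.25), Adcy2 (−0.77), Shank2 (−0.09), Plxna4 (−0.83) and Ttc28 (−0.47), with spans from 440.6 to 446.9 kb.

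The families and complexes of the 8 genes were described from lists of their other members. In each of these lists 0 genes passed limma's adjusted p of 0.05, as 0.00952% of all tested genes did. At an unadjusted limma p under 0.05, 8.45% of all tested genes were lower and 6.12% higher, which stand beside the list counts below. After median centring the median of all genes was 0.10, against −0.04 before, and the medians of the lists moved with it. Of the other receptor tyrosine phosphatases, 13 were tested, with 3 lower and 0 higher at an unadjusted p under 0.05 and a median of −0.10 (0.03 after median centring). Without PhIP 1, 1 was lower. The endothelial phosphatase gene Ptprb had 90.4 and 79.3 in PhIP, against 146.2 and 137.6 in control (−0.68 ± 0.15, limma adjusted p = 0.14). Ptprd, which spans 2322.3 kb, had 12.5 and 18.0 in PhIP, against 30.8 and 27.2 in control (−0.63 ± 0.24, limma adjusted p = 0.342). Ptprs, a phosphatase gene of 61.6 kb, stood at −0.52 ± 0.20 (limma adjusted p = 0.339).

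Cadherin relatives of Cdh13, catenins and adiponectin genes had a median of 0.00 over 12 tested genes, with 1 lower and 1 higher at an unadjusted p under 0.05. Without control 1, 5 were higher, without control 2, 3 were lower, without PhIP 1, 0 were lower, and without PhIP 2, 0 were higher. The gene that was higher was Cdh1, the epithelial E-cadherin gene, with 2539.5 and 2689.6 in PhIP, against 2127.1 and 2140.7 in control (0.29 ± 0.07, limma adjusted p = 0.169). The gene that was lower was the muscle cadherin gene Cdh15 (−0.63 ± 0.27, limma adjusted p = 0.381). Adipor2, which encodes a receptor of adiponectin, stood at 0.38 ± 0.17.

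The other subunits of the vesicle-tethering complexes lay closer to 0 than Trappc9 and Exoc6b. The 12 tested TRAPP subunit genes, of which the longest spans 76.5 kb, ranged from −0.21 to 0.36 with a median of −0.04 (0.10 after median centring), against −0.96 for Trappc9. At the ends of that range were Trappc5 (−0.21 ± 0.11) and Trappc2 (0.36 ± 0.12, limma adjusted p = 0.298), the only one under an unadjusted p of 0.05. Without control 1, 2 were higher and 2 lower, without control 2, 1 was higher and 1 lower, and without PhIP 1 or PhIP 2, 0 were either. Trappc4 stood at 0.19 ± 0.12. The 7 tested exocyst genes ranged from −0.54 to 0.05 with a median of −0.04 (0.10 after median centring), against −0.65 for Exoc6b, and 0 were under an unadjusted p of 0.05 (1 without control 1). Its paralogue Exoc6 was the lowest of them, with 13.3 and 18.5 in PhIP, against 29.7 and 25.4 in control (−0.54 ± 0.24). The next were Exoc3 (−0.36 ± 0.20) and Exoc7 (−0.30 ± 0.18). The order of Exoc6 and Exoc6b depended on the constant. Exoc6 stood at −0.81 with none, −0.73 with a constant of 2 and −0.41 with 20, against −0.67, −0.67 and −0.63 for Exoc6b. Without control 1, Exoc3 stood at −0.69 and Exoc6b at −0.65. These sets of values are a description, since Trappc9 and Exoc6b were chosen for being low.

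Of the auxiliary subunits of the BK channel, 3 were tested. Lrrc26, a subunit that lets the channel open at resting voltage in epithelial cells, had 597.0 and 627.0 in PhIP, against 508.6 and 531.8 in control (0.23 ± 0.10, limma adjusted p = 0.376). It was higher on both PhIP arrays, the opposite side to Kcnma1, and was not under an unadjusted p of 0.05 without PhIP 1 or PhIP 2. Of the 3 probe sets of Kcnma1, only 1372929_at (−0.65) was lower without overlap, and the gene was picked for a lower signal. Kcnmb1, the subunit found in smooth muscle, was dim and stood at −0.17 ± 0.24. Atrn, the attractin gene, stood at 0.19 ± 0.13 and Rnf157, a ubiquitin ligase gene, at −0.19 ± 0.24. The 5 phagophore genes related to Bcas3 ranged from −0.17 to 0.13, with Wipi2, which encodes a lipid-binding protein of the phagophore, at 0.13 ± 0.13.

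**Figure D4:**
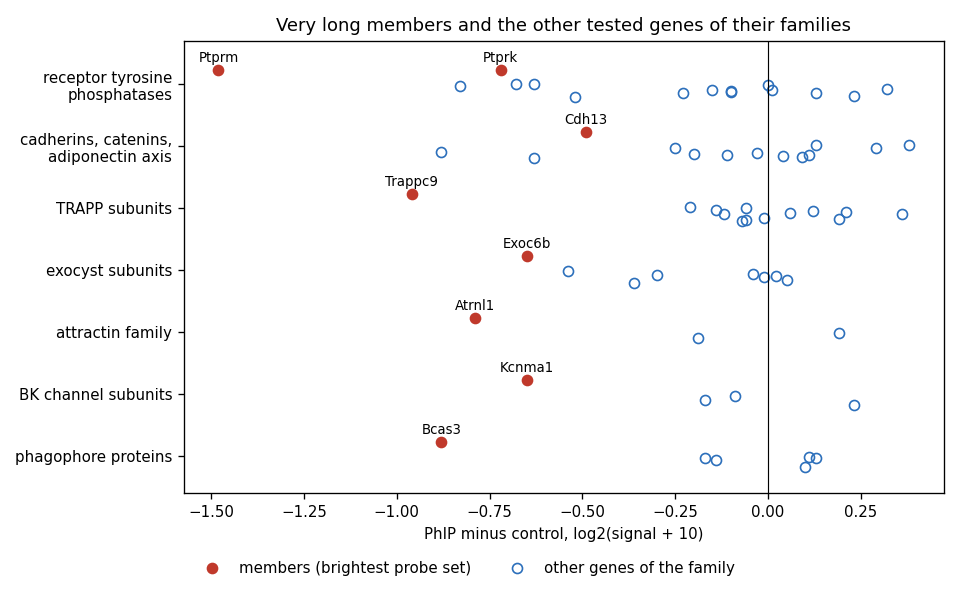
Difference of PhIP minus control on the log2(signal + 10) scale for the brightest probe set of each of the 8 genes (red) and for the other tested genes of their families or complexes (open blue), 1 row per family. Trappc9 at −0.96 lies outside the range of the other 12 TRAPP genes, −0.21 to 0.36, and Exoc6b at −0.65 below the 7 exocyst genes, −0.54 to 0.05.

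Markers of several cell types also differed between the groups. In bulk tissue, fewer cells of a type and less RNA per cell cannot be told apart. Smooth muscle markers, given because Kcnma1 is known as a smooth muscle channel, had summed signals of 7733 and 7599 in PhIP, against 10343 and 10501 in control. Of 12 tested, 9 were lower and 0 higher at an unadjusted limma p under 0.05 (median −0.70), among them Actg2 (−0.97 ± 0.12), Tpm2 (−0.91 ± 0.13) and Acta2 (−0.84 ± 0.10). Mylk, the brightest of them, did not differ, with 3069.0 and 2964.6 in PhIP, against 3045.0 and 3034.5 in control (−0.01 ± 0.06). Synm stood at 0.03 ± 0.14. Over all tested genes, 8.45% were lower and 6.12% higher at that p, shares that also stand beside the marker counts below. Fibroblast markers summed to 7562 and 7697 in PhIP, against 12556 and 10003 in control, with 8 of 10 lower (median −0.53, and 5 lower without PhIP 1). Endothelial markers summed to 331 and 327 in PhIP, against 436 and 454 in control, with 2 of 9 lower (median −0.31, and 1 lower without PhIP 1 and 0 without PhIP 2). Nerve and Schwann cell markers summed to 439 and 391 in PhIP, against 588 and 618 in control, with 4 of 4 lower (median −0.71, and 0 lower without PhIP 2).

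Skeletal muscle markers summed to 518 and 439 in PhIP, against 928 and 1697 in control, with 3 of 6 lower (median −1.09, and 6 lower without control 1) and the highest sum on control 2. Basal epithelial markers summed to 869 and 954 in PhIP, against 987 and 958 in control, with 1 of 5 lower (median −0.34, and 0 lower without PhIP 1 or PhIP 2). Luminal and ventral prostate markers, which define the labelled tissue, were bright and higher, with 33435 and 33974 in PhIP, against 30762 and 28813 in control, and 7 of 13 higher (median 0.17, and 4 higher without PhIP 1 or PhIP 2). Macrophage markers summed to 6761 and 6733 in PhIP, against 5489 and 5365 in control, with 2 of 8 higher and 0 lower at that p. Their median was −0.04, and Lyz2 and Cd14, the 2 that were higher, made up most of the sum, while Cd68 stood at −0.44 ± 0.22. Of all these markers, 0 had a signal of 0 on any array and 0 passed the adjusted p of 0.05. Their part in the differences of the 8 genes was not tested.

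The arrays also differed in 3′ to 5′ ratio and in scale. The ratio of 3′ to 5′ signal of actin was 3.93 and 3.49 in PhIP, against 4.18 and 5.71 in control. That of Gapdh was 1.45 and 1.44 in PhIP, against 1.34 and 2.06 in control. Control 1 thus lay above both PhIP arrays in actin and below both in Gapdh. Without control 2, the median of the 19 probe sets was −0.65, while single probe sets moved either way. Among them, Ptprk 1375239_at went from −0.61 to −0.05 and 1387411_at from −0.09 to −0.49. The part of these ratios in the differences of the 8 genes was not tested. The 18 probe sets of the hybridization controls were lower by 0.23 on the log2 scale in PhIP (−0.23). Scaling to them moved the median of all genes from −0.04 to 0.14 and that of the 19 probe sets to −0.50, so that the distance between these medians was −0.64, against −0.61 before. The brightest probe set of each of the 8 genes was lower in PhIP under each other constant and scaling tried and without each array in turn. Nothing is read from that, since the genes were picked as lower on these same arrays. Of the 19 probe sets, 18 were lower as deposited. After cyclic loess, median centring, quantile normalization or scaling to the hybridization controls, 15 were.

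The genes whose profile over the 4 arrays was most like the mean of the 8 were found by distance, over 4 arrays, between values centred on each gene's own mean, among tested genes. They were Podxl (distance 0.025, difference −0.84), which encodes a sialomucin of podocytes and endothelium, and Col11a1 (0.046, −0.82), a fibrillar collagen gene. After them came the endothelial gene Mmrn2 (0.087, −0.76), the annexin gene Anxa5 (0.098, −0.78), the chemokine gene Ccl20 (0.102, −0.81) and Ext1 (0.103, −0.85), which encodes an enzyme of heparan sulfate synthesis. Of the 8 genes, Atrnl1 lay nearest to their own mean (0.038) and Ptprm farthest (0.683). None of the 6 genes spans 450 kb, with Ext1 the longest at 278.8 kb. With 4 arrays, likeness says little more than a decrease of the same size with close replicates.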

How the data were processed

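The authors deposited linear intensities made with MAS5, per the submitters' processing notes, without a version. Scaling target: not given in the sources used here. The 57 control probe sets were left out of tests, which left 31042. The platform annotation named the probe sets: 20832 carried 1 symbol, 436 several and 9831 none, and 20764 of the single symbols matched RefSeq genes of GRCr8, which gave the spans. Signals were analysed as log2(signal + 10). Probe sets whose mean log2 value exceeded the 40th percentile (18625, a signal plus constant of 24.3 or more) were tested with limma 3.58.1 in R 4.3.3 (lmFit, eBayes with trend, two-sided, Benjamini-Hochberg adjustment at 0.05). Of the steps, only the limma fit was tested on simulated data. A gene was represented by its brightest probe set, the one with the highest mean log2 value over all arrays. The 8 genes, the lists and the naming rule were all chosen with earlier results of these data known. The rule took each list's 3 genes with the largest moderated statistic (all genes of lists under 9), the 8 lowest and 4 highest other tested genes over 450 kb without overlap, and the 6 most alike. Genes of short lists are summarised by range where not named. Alternatives were other constants, filters, normalizations and variance models, a replicate block, omission of each array and other span thresholds. Plots were drawn with matplotlib 3.10.9. The p-values rest on the spread between arrays, each of a pool of rats. That spread is moderated by limma toward that of other probe sets of similar intensity (2 residual and 5.67 prior degrees of freedom).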

Additional observations from a re-analysis of the deposited data

How the results depend on the processing

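With 2 arrays a group, the number of probe sets past limma's adjusted p was 5 and depended on most choices. It was 22 with a constant of 20, 3 after cyclic loess, 44 with the filter at the 60th percentile, 35 with the replicate block, 52 with robust eBayes and 164 after scaling to the hybridization controls. It was 0 with eBayes without trend, no filter, median centring or quantile normalization, and 0 to 2334 without 1 array (2334 without control 1, 462 without control 2, 0 without PhIP 1 or PhIP 2). The correlation of the deviations of same-numbered arrays was −0.0558. With 2 arrays a group it cannot show whether arrays were paired, and the labels do not say. Probe sets lower at an unadjusted p, 1418 in all, numbered 899 with the filter at the 60th percentile, 645 after median centring, 451 after scaling to the hybridization controls and 702 to 2701 without 1 array. The median of the 19 probe sets, −0.65, was −0.83 with a constant of 2, −0.84 with none, −0.51 after median centring, −0.50 after scaling to the hybridization controls and −0.72 to −0.60 without 1 array. The number of them lower without overlap, 15, was 13 after cyclic loess, quantile normalization, median centring or scaling to the hybridization controls, and 15 to 17 without 1 array. The median of the other genes of at least 450 kb, −0.26, was −0.38 with a constant of 2, −0.46 with none, −0.17 after cyclic loess or quantile normalization, −0.12 after median centring, −0.13 after scaling to the hybridization controls, −0.37 over tested genes only and −0.28 to −0.19 without 1 array. Genes with probe sets of both signs, 1 in all (Bcas3), numbered 3 after cyclic loess, quantile normalization, median centring or scaling to the hybridization controls, 2 with no constant and 2 to 3 without 1 array. These added Kcnma1 and Ptprk through dim probe sets. Genes of the lists under an unadjusted p of 0.05, 42 in all, numbered 28 to 55 without 1 array. Trappc5 stood at 0.02 after scaling to the hybridization controls. The causes were not tested.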
